A study of Olea europaea var. sylvestris with 6 samples.

Results

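The genes described here are those whose transcript level in 1 stem library of wild olive, AC15 replicate 2, departed most from the other AC15 libraries. They number 150 of the 50668 genes in the table. Levels are CPM, the counts of a gene per 1000000 counts of its library. A gene was a candidate where its mean over the AC15 libraries was at least 20 CPM, where the ratio of AC15 replicates 1 and 3 lay between 0.67 and 1.5, and where the ratio of the AC15 to the AC18 mean lay between 0.25 and 4. The 200 most abundant genes were left out. Of the 9281 candidates, the 150 with the largest departure of replicate 2 from the mean of replicates 1 and 3 were taken, on the log2 scale with 0.5 CPM added. The members were thus chosen by the measured values of AC15 replicate 2 against replicates 1 and 3, and these departures are given below as a description with no test.

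The study compared stems of 2 certified wild olive varieties (Olea europaea var. sylvestris), AC18, described by the submitters as tolerant to Verticillium wilt, and AC15, described as susceptible. Each variety gave 3 independent biological replicates, per the labels. All plants were non-treated and self-rooted from leafy cuttings. Their age was 6 to 10 months, their height 40 to 52 cm, and they had acclimated in a greenhouse over 2 months. Each genotype is a single variety, so it stands for itself and not for tolerant or susceptible olives in general.

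Verticillium wilt is a vascular disease in which a soil-borne fungus, Verticillium dahliae, enters through the roots and grows in the water-conducting xylem of the stem. A stem sample is a mixture of tissues that includes bark, phloem, cambium and xylem. In such bulk samples, fewer cells of a type and less RNA per cell cannot be told apart. The identifiers could not be joined to gene names, since 0 of the 50668 were found in the RefSeq table of 47911 olive genes. What the members encode is therefore not given, no markers of stem tissues could be examined, and no sequences are shown.

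Library totals ran from 7468058 to 8589143 counts, and AC15 replicate 2 held 8489459. All 150 members had reads in all 6 libraries, with a lowest count of 21.

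AC15 replicate 2 was set apart by many small departures and 1 very large one. It lay above replicates 1 and 3 of AC15 for 79 members and below them for 71. The median departure was 1.45-fold among the higher members and 1.46-fold among the lower members. A departure of at least 1.5-fold was reached by 23 higher and 22 lower members, which are also 0.248% and 0.237% of the candidates, since the members were taken from the top of the same ranking. A departure of at least 2-fold was reached by no higher member, where the share of candidates was 0%, and by 4 lower members, where it was 0.0431%. The higher members ran from 0.47 to 0.95 on the log2 scale and the lower members from -0.47 to -5.09. The last member inside the limit had a log2 ratio of -0.470, or 1.385-fold, and the first gene outside it 0.469, or 1.384-fold, so the limit does not mark a gap.

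**Figure D1:**
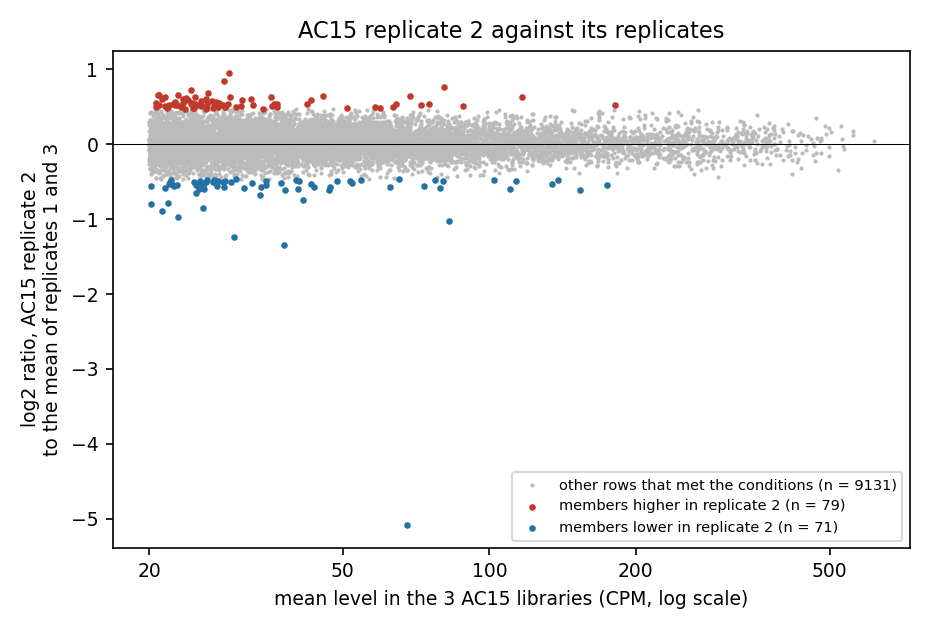
Log2 ratio of AC15 replicate 2 to the mean of AC15 replicates 1 and 3 against the mean AC15 level in CPM (log axis), 1 point per gene that met the conditions. The 79 higher members (red) and 71 lower members (blue) form the edges of one cloud, and a single gene lies far below it at -5.09.

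The division into higher and lower members depended on the scaling. With totals normalized by TMM, which corrects library totals for a few strongly differing genes, the rule would have taken 63 higher and 87 lower genes. Of these, 129 were shared with the 150 members. The median log2 ratio of the candidates was 0.02 with plain totals and -0.005 with TMM.

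The gene with the largest departure, Oeu038801.1, was nearly silent in AC15 replicate 2. It had 792, 21 and 711 counts in AC15 replicates 1, 2 and 3 and 340, 358 and 336 counts in AC18 replicates 1, 2 and 3. Its level was 106 and 94.99 CPM in AC15 replicates 1 and 3 but 2.47 CPM in replicate 2, below each of the 3 AC18 libraries (39.1 to 45.4 CPM). The 2 other AC15 libraries lay above all AC18 libraries, so replicate 2 put the genotypes into overlap. Pooled counts of replicates 1 and 3 gave a level 40.6-fold that of replicate 2 (95% exact binomial interval 26.5 to 65.8). This interval and those below cover counting error only.

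Genes that rose strongly in replicate 2 were searched for within set limits. Outside the 200 most abundant genes, 0 genes had at least 200 counts in AC15 replicate 2 together with at least 4 times the mean CPM of replicates 1 and 3. Smaller rises, rises spread over several genes and rises among the most abundant genes were not covered. Whether any gene took up the reads of Oeu038801.1 was thus not tested. The identifier before Oeu038801.1, chosen after its values were seen and too low in abundance to be a candidate, had 81, 44 and 67 counts in AC15 replicates 1, 2 and 3. It had 47, 32 and 25 counts in AC18, so its AC15 mean of replicates 1 and 3 was 1.91 times the level of replicate 2. The identifier after it had 6, 5 and 6 counts in AC15 and 0, 3 and 7 in AC18. kallisto divides reads among similar transcripts, and whether a near copy took up these reads could not be examined without sequence.

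Oeu015586.1 had the next largest fall. It had 381, 157 and 331 counts in AC15 replicates 1, 2 and 3 and 111, 120 and 132 counts in AC18. The corresponding levels were 51.0, 18.5 and 44.2 CPM in AC15 and 14.0, 15.2 and 15.4 CPM in AC18. Replicate 2 was the lowest AC15 library, yet still above all 3 AC18 libraries, so the genotypes did not overlap. The pooled level of replicates 1 and 3 was 2.57-fold that of replicate 2 (95% exact binomial interval 2.16 to 3.08).

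The 2 largest rises were smaller than these falls. Oeu056803.1 had 154, 367 and 178 counts in AC15 replicates 1, 2 and 3 and 232, 216 and 211 counts in AC18, or 20.6, 43.2 and 23.8 CPM against 29.3, 27.4 and 24.6 CPM. Replicate 2 was the highest of the 6 libraries and replicates 1 and 3 the lowest, so the AC18 libraries lay between them. The count ratio of replicate 2 to the pooled other AC15 libraries was 1.95 (95% exact binomial interval 1.67 to 2.27). Oeu056432.1 had 151, 346 and 185 counts in AC15 and 147, 136 and 145 in AC18, or 20.2, 40.8 and 24.7 CPM against 18.6, 17.2 and 16.9 CPM. Here all AC15 libraries lay above all AC18 libraries, and replicate 2 was 1.81 times the other AC15 libraries (interval 1.56 to 2.11).

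**Figure D2:**
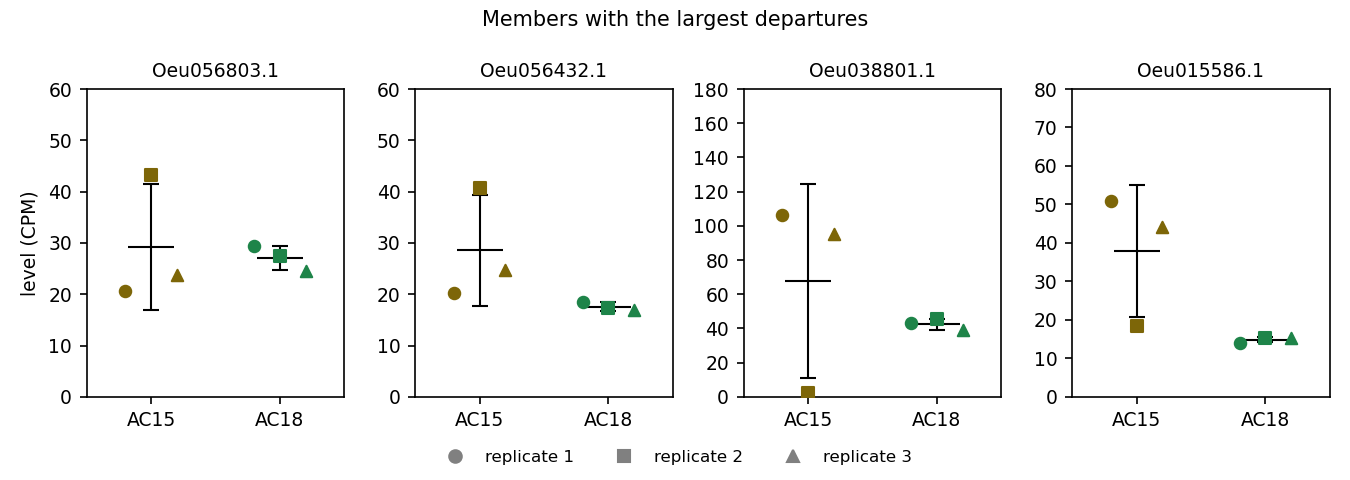
Level in CPM of the 2 members with the largest rises (Oeu056803.1, Oeu056432.1) and the 2 with the largest falls (Oeu038801.1, Oeu015586.1), 1 point per library, with bars for the genotype mean and SD (n = 3 libraries each). AC15 replicate 2 (square) stands apart from the other AC15 libraries in each panel, at 2.47 CPM for Oeu038801.1 and near the AC18 libraries for Oeu015586.1. The 3 AC18 libraries lie close together.

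Most other departures were modest once counting error was allowed for. The 95% exact interval of the count ratio was computed for every member, and its bound nearest to no difference was at least 1.16-fold, with a median of 1.253-fold. That bound was above 1.3-fold for 48 members and above 1.5-fold for 10. Because the members were picked as the extremes of 9281 candidates, these intervals overstate how sure each departure is. A ranking by fold also favours genes with few counts: the mean AC15 level was under 30 CPM for 87 members (58.0%), against 26.9% of the candidates. The median level was 28.3 CPM over the members and 44.5 CPM over the candidates.

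Summed over members, the departure was about equal in size in both directions. The 79 higher members held 2318, 3571 and 2502 CPM in AC15 replicates 1, 2 and 3 and 2331, 2403 and 2476 CPM in AC18. Replicate 2 was the highest of all 6 libraries, 1.48 times the mean of replicates 1 and 3. The 71 lower members held 3792, 2404 and 3588 CPM in AC15 and 3118, 3206 and 3316 CPM in AC18. Replicate 2 was the lowest of all 6 libraries, and the mean of replicates 1 and 3 was 1.53 times its sum. Without Oeu038801.1 the ratio was 1.49, so that gene carried little of the summed departure.

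AC15 replicate 3 tended to lie between replicates 1 and 2. The rule treats replicates 1 and 3 alike, but it can still affect how often each order appears. Ranking by the gap favours genes where the more variable library lies further from replicate 2. The SD of the log2 ratio to the other two AC15 libraries was 0.156 for replicate 1 and 0.123 for replicate 3. Nothing is therefore read from a higher share among the members. Replicate 3 was on the side of replicate 2 for 57 of the 79 higher members and 49 of the 71 lower members, together 70.7% of the members. Over the 7150 candidates for which replicate 2 lay outside the range of replicates 1 and 3 the share was 58.9%. The median log2 difference of replicate 3 minus replicate 1 was 0.10 over the higher members and -0.12 over the lower members, against 0.02 over the 4068 candidates with replicate 2 above both others and -0.03 over the 3082 with it below both. This is a description of 3 libraries, and whether it would recur in further plants cannot be seen from them.

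For most members, AC15 replicate 2 was no nearer to AC18 than replicates 1 and 3 were. Relative to AC15 replicates 1 and 3, the AC18 mean lay on the side away from replicate 2 for 44 of the 79 higher members, between them and replicate 2 for 28, and beyond replicate 2 for 7. For the 71 lower members the corresponding numbers were 26, 28 and 17. Replicate 2 was nearer than replicates 1 and 3 to the AC18 mean for 20 higher (25.3%) and 31 lower members (43.7%). Among the candidates these shares were 39.9% and 47.8%. The position of AC18 was limited beforehand by the genotype bounds, and the AC18 mean enters both distances. Replicate 2 was picked for its extreme value and is a single library set against a mean. A lower share among members than among candidates can follow from this choice, so these counts are a description. Replicate 2 was the highest of all 6 libraries for 65 of the higher members and the lowest of all 6 for 48 of the lower members. The choice of members already placed it outside both other AC15 libraries. The share of candidates was not computed, so nothing is read from these 2 counts.

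**Figure D3:**
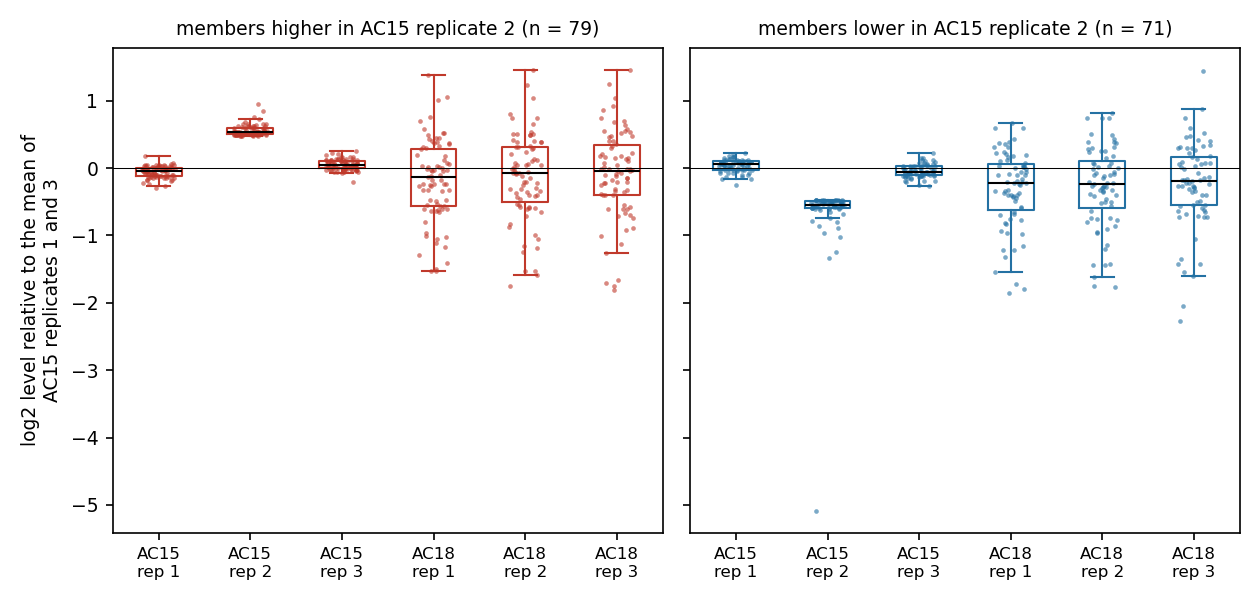
Log2 level of each member in each library relative to the mean of AC15 replicates 1 and 3 (zero line), for the 79 higher members (left) and the 71 lower members (right). Boxes show quartiles and medians, whiskers extend to 1.5 times the box, and each point is a gene. AC15 replicate 2 forms a narrow band away from zero, as the rule requires, whereas the AC18 libraries spread on both sides of it.

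Reads of genes seen almost exclusively in AC18 were rare in all 3 AC15 libraries. Genes were taken that had at least 10 counts in every AC18 library and at most 2 counts summed over the other two AC15 libraries. AC15 replicate 2 held 258 counts over 284 such genes, or 2.05% of their summed AC18 level. By the same measure replicate 1 held 207 counts over 270 genes (1.81%) and replicate 3 held 168 counts over 261 genes (1.59%). With no count allowed in the other AC15 libraries, the shares were 0.937%, 0.775% and 0.776% for replicates 1, 2 and 3. Conversely, 47 genes had at least 10 counts in AC15 replicates 1 and 3 and none in AC18. All 47 were detected in replicate 2, at a summed level of 196.5 CPM, against 196.6 CPM in replicate 1 and 190.8 CPM in replicate 3.

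The departure of AC15 replicate 2 was larger than that of any other library from its own replicates. Each library was set against the mean of the other two of its genotype over the same 8409 genes, those of at least 20 CPM in both genotypes without the 200 most abundant. The SD of the log2 ratio was 0.189 for AC15 replicate 2, 0.156 and 0.123 for AC15 replicates 1 and 3, and 0.0979 to 0.127 for the AC18 libraries. Counting error alone would give 0.0901 to 0.0950. Without Oeu038801.1 the SD for AC15 replicate 2 was 0.181. The number of genes that departed by at least the smallest member's log2 ratio was 107 for AC15 replicate 2. It was 44 and 9 for AC15 replicates 1 and 3, and 18, 1 and 17 for AC18 replicates 1, 2 and 3. That limit came from the ranking of AC15 replicate 2 itself, so the choice of members largely fixed the count of 107. These counts are a description and do not show that this library departed most. AC15 replicate 2 is itself part of the mean for the other two AC15 libraries and adds to their values.

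**Figure D4:**
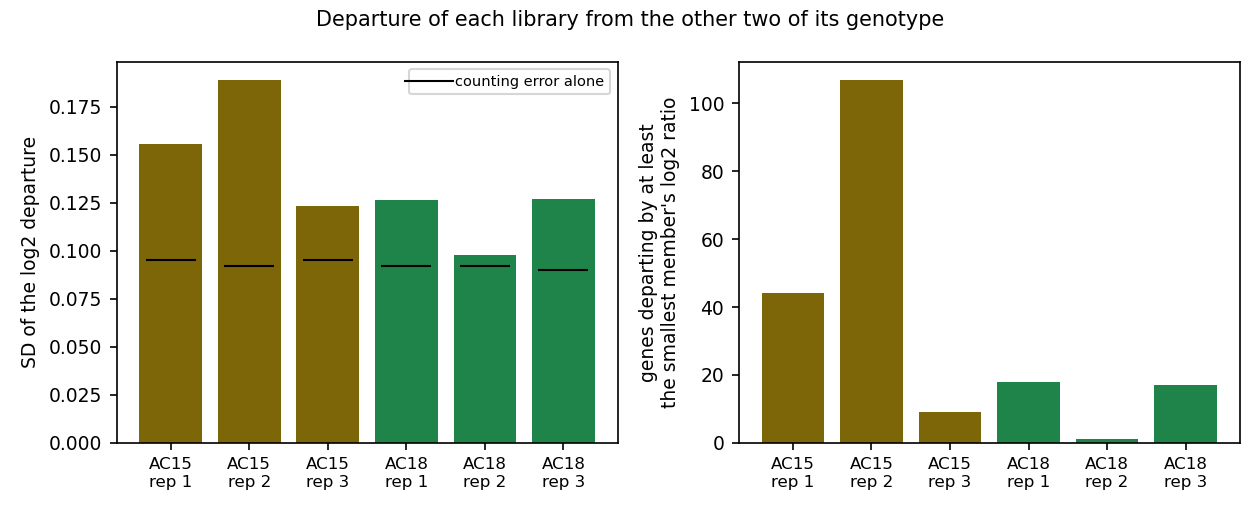
Departure of each library from the mean of the other two of its genotype over 8409 genes. Left, SD of the log2 ratio (bars) with the SD that counting error alone gives (black lines); right, number of genes departing by at least 0.470 on the log2 scale. AC15 replicate 2 has the highest bar in both panels, 0.189 and 107 genes. The limit in the right panel was taken from the ranking of AC15 replicate 2, which largely fixed its bar there.

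The members did not form a matching group of high and low genes among the AC18 libraries, which the rule used only through their mean. In AC18 replicate 1 the median log2 deviation from the other AC18 libraries was -0.08 for the higher members and -0.06 for the lower members. In AC18 replicate 2 it was -0.006 and 0.02, and in AC18 replicate 3 it was 0.05 and 0.07. Genes that were opposite in AC15 replicate 2 thus had deviations of the same sign in AC18 replicates 1 and 3. Candidates under 30 CPM showed medians of -0.05, 0.002 and 0.05 in the 3 AC18 libraries, so much of this shift was shared by genes of low abundance. Across the 150 members, Pearson's r between the departure in AC15 replicate 2 and the deviation in an AC18 library was -0.06, -0.02 and 0.08 for AC18 replicates 1, 2 and 3. Spearman's rho was -0.06, 0.06 and 0.02. These describe genes that share libraries and are too weak to be a finding.

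Spread among the AC18 libraries was measured in 2 ways, which differed for the higher members. For each gene the chi-square of the 3 AC18 counts per degree of freedom was taken. Where replicates differ by counting error alone, the mean of this measure over genes is near 1 and its median is lower. Its median was 1.18 over the 79 higher members and 1.54 over the 71 lower members, against 1.17 over the candidates. Among genes under 30 CPM the medians were 1.18 for 53 higher members, 2.00 for 34 lower members and 1.04 for 2496 candidates. Among genes of 30 CPM or more they were 1.15, 1.504 and 1.23. The value passed 5 for 3 higher members (3.80%) and 10 lower members (14.1%), and for 8.09% of the candidates. No test was made of this difference, since the members were chosen with these data known.

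On the log2 scale, the median SD over the AC18 libraries was 0.113 for the higher members, 0.108 for the lower members and 0.0774 for the candidates. By this measure the higher members were thus no closer to the candidates than the lower members were. Under 30 CPM the medians were 0.122, 0.138 and 0.102, and at 30 CPM or more 0.0828, 0.0833 and 0.0699. The SD on this scale includes counting error, which is larger for genes of low abundance. Over all members the median was 0.111. The distance between the highest and lowest AC18 library reached the smallest member's log2 ratio for 10 members (6.67%) and for 1.36% of the candidates. Without AC18 replicate 1 the median SD of the members fell to 0.0709, and without AC18 replicate 3 to 0.0799, against 0.0584 and 0.0579 for the candidates. Without AC18 replicate 2 it was 0.109, against 0.0744 for the candidates.

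Genotype calls of part of the members changed when AC15 replicate 2 was left out. The difference AC18 minus AC15 was fitted on all 24018 genes that passed the filter on low counts, and a gene is called where edgeR's adjusted p was under 0.05. With all libraries 82 of the 150 members (54.7%) were called, where 59.5% of all tested genes and 65% of the candidates were called. Without AC15 replicate 2, 104 members (69.3%) were called, against 58.6% of the 24464 genes then tested and 65.1% of the candidates. The rule bounded the genotype ratio and picked genes with a discordant AC15 library, so nothing is read from either count about the varieties. Both fits called 70 of the members, all in the same direction. Another 12 were called with all libraries alone, 34 without AC15 replicate 2 alone, and 34 in neither fit. The share of all tested genes or of candidates whose call changed was not computed, so whether members changed more often cannot be said. Leaving out AC15 replicate 1 or 3 in its place gave 93 and 79 called members, where 57.3% and 54.4% of all tested genes were called. Leaving out single AC18 libraries gave 66 to 72, where 52.6% to 54.9% of all tested genes were called.

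More called members were higher in AC15 than in AC18, as among the candidates. With all libraries 22 of the called members favoured AC18 and 60 favoured AC15. These are 14.7% and 40.0% of the members, against 29.5% and 30% of all tested genes and 25.2% and 39.8% of the candidates, which had to be well expressed in AC15. Without AC15 replicate 2 the numbers were 32 (21.3%) and 72 (48.0%), against 29.6% and 28.9% of the genes then tested. The shares of candidates by direction were not computed for this fit. Of the higher members 49 of 79 were called with all libraries and 54 without AC15 replicate 2. Of the lower members 33 of 71 were called with all libraries and 50 without it. The CPM values of the genotypes did not overlap for 67 members (44.7%) with all libraries, where 63.1% of tested genes and 67.2% of the candidates did not overlap. Without AC15 replicate 2 they did not overlap for 109 members (72.7%), against 70.7% of tested genes and 74.6% of the candidates.

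The fitted genotype difference of the members moved by a median of 0.19 on the log2 scale when AC15 replicate 2 was left out, against 0.06 for all tested genes. Its sign changed for 20 members, some of which barely crossed, such as a member that went from -0.25 to 0.0001. The share of all tested genes that changed sign was not computed, so nothing is read from this count. The median standard error of the members fell from 0.132 to 0.111, although a library fewer was fitted, while that of all tested genes rose from 0.141 to 0.149. The rule took genes with the largest departure of that library and with agreement of the other two, which fixes a larger shift and a smaller error in advance. The median absolute difference was 0.39 in both fits.

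Among the named members, Oeu038801.1 showed the strongest dependence. Its fitted difference was -0.71 with a standard error of 1.06 and an edgeR adjusted p of 0.609 with all libraries. Without AC15 replicate 2 it was -1.29 with a standard error of 0.0776 and an edgeR adjusted p of 6.9e-21. The rule chose members for the departure of that library and the agreement of the other AC15 libraries. A small standard error and a small adjusted p without it were thus favoured in advance and are not evidence about the varieties. limma voom with all libraries gave 0.61 (adjusted p = 0.781), the opposite sign, so no direction can be given for this gene with all 6 libraries.

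The other named members also changed, and the same limit holds for their values without AC15 replicate 2. Oeu015586.1 moved from -1.39 ± 0.469 (SE, edgeR adjusted p = 0.0632) to -1.73 ± 0.107 (edgeR adjusted p = 2.5e-20) without AC15 replicate 2, and DESeq2 called it with all libraries (adjusted p = 0.00471). Oeu056803.1 moved from -0.17 ± 0.297 (SE, edgeR adjusted p = 0.658) to 0.24 ± 0.116 (edgeR adjusted p = 0.0758), and was called in neither fit. Oeu056432.1, higher in AC15, moved from -0.76 ± 0.229 (SE, edgeR adjusted p = 0.0169) to -0.40 ± 0.124 (edgeR adjusted p = 0.00445). Its call was lost without AC18 replicate 2 (-0.73 ± 0.290, edgeR adjusted p = 0.0686) and without AC18 replicate 3 (-0.71 ± 0.290, edgeR adjusted p = 0.0753), where the difference was about as large and the standard error larger.

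**Figure D5:**
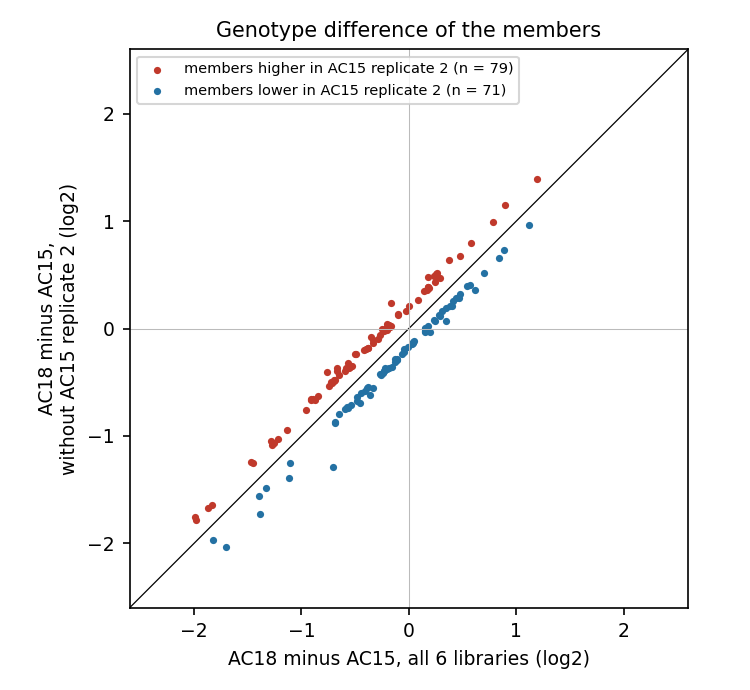
Fitted log2 difference AC18 minus AC15 of each member with all 6 libraries (horizontal) and without AC15 replicate 2 (vertical), with the line of equality. The 79 higher members (red) lie above the line and the 71 lower members (blue) below it, as follows from the choice of members. The 20 members that changed sign lie in the upper left and lower right quadrants.

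Few members were close to each other in the identifiers, and how many would be so at random was not computed. A pair of members with consecutive numbers and a pair 3 numbers apart were the only members within 3 numbers of each other. In both pairs the members went in opposite directions, with log2 ratios of -0.74 and 0.53 in the first and -0.53 and 0.51 in the other. Candidates within 3 numbers of a member, with the members themselves left out, showed no shared departure. The candidates with the largest departures were thus absent from these neighbours. The 85 such neighbours of higher members had a median log2 ratio of -0.003, and the 77 neighbours of lower members one of 0.02. Replicate 2 was above the mean of replicates 1 and 3 for 49.4% and 53.2% of them, against 55.3% of all candidates. The number after the point of the identifier was 1 for 130 members (86.7%) and 81.3% of candidates, and the sources used here do not say what it denotes.

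By number, the abundance minimum of the rule left out many departures of comparable size, and its other conditions few. The groups left out by the other conditions were far smaller, so these numbers do not compare rates. Among the 9281 candidates, the 150 members departed by this much. Of 4121 genes with an AC15 mean from 10 to under 20 CPM that met the bounds on both ratios, 286 departed by at least the smallest member's log2 ratio, the largest by 1.17. These genes have fewer counts and a larger counting error. Of the 200 most abundant genes, 5 departed by as much, the largest by 0.95. Of 180 genes of at least 20 CPM with a genotype ratio outside the bounds, 7 did so, the largest by 1.15. Of 7 genes on which AC15 replicates 1 and 3 disagreed beyond the bounds, 1 did so, by 1.10. None came near the departure of Oeu038801.1 at 5.09.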

How the data were processed

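Poly(A) RNA of 6 stem libraries was sequenced as paired 100-base reads from a stranded kit, per the labels' protocols. The deposited table holds estimated counts as whole numbers, used without further rounding. Tools named in the submitters' processing notes are FastQC, Trimmomatic and also kallisto 0.46.1. Of the transcript reference and of the rounding, nothing is given in the sources used here. kallisto divides reads among similar transcripts, so a level can depend on near copies.

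CPM was computed from column totals. Genotypes were compared with edgeR 4.0.16 in R 4.3.3 (quasi-likelihood, robust, TMM, Benjamini-Hochberg) after filterByExpr (minimum count 10, minimum total 15), which all 150 members passed. Standard errors given for edgeR are the absolute log2 difference divided by the square root of the F statistic, since the test itself reports none. DESeq2 1.42.0 and limma 3.58.1 were alternatives. The fit was tested on simulated data. Named genes are the 2 largest rises and the 2 largest falls. Members and lists were chosen with earlier results of these data known. Planned lists of product names could not be run, because 0 identifiers matched a gene name. Single-gene intervals are exact binomial (Clopper-Pearson) at 95%.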

Additional observations from a re-analysis of the deposited data

How the results depend on the processing

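The count of 82 called members stayed within 1.5 times under the alternatives run: 71 with DESeq2 (41.8% of all genes called), 98 without a filter (46.9%), 79 with limma voom, and 82 with DESeq2 size factors, with library totals alone and with a 1 CPM filter (59.0% to 59.4% in these 4). Leaving out single libraries gave 66 to 104. A replicate block gave 100 (59.1% of all genes called), but same-numbered libraries did not deviate together (r of -0.03, -0.02 and -0.05) and nothing in the labels pairs them. The number of higher members was 63 with TMM, 101 with a minimum of 50 CPM, and 78 to 84 under the other settings that kept all libraries. It was 78 to 94 without single libraries. Which genes are members depended on the limits: 47 of 150 were shared with a minimum of 10 CPM, 30 with 50 CPM, 86 and 93 without AC15 replicates 1 and 3, and 129 or more otherwise. Without AC15 replicate 2 the rule cannot be applied. The members' median SD in AC18 was 0.0948 to 0.100 with a pseudocount of 5 or TMM and 0.0709 to 0.109 without single AC18 libraries. The 258 counts in genes used by AC18 alone became 40 when no count was allowed in the other AC15 libraries, a limit added after seeing the data that leaves fewer genes. The count of members with AC18 away from replicate 2 was 70 with and without TMM, and replicate 3 was on the side of replicate 2 for 106 and, with TMM, 107; these were also added later. The sign of the genotype difference turned for Oeu038801.1 with limma voom (0.61) and for Oeu056803.1 without AC15 replicate 2 (0.24, the upper end of -0.37 to 0.24 over single libraries left out). Oeu015586.1 was called with the replicate block (edgeR adjusted p = 0.0324), and its edgeR adjusted p otherwise ran up to 0.160. The cause of these changes was not tested. With 1 discordant library of 3, neither the spread of AC15 nor the level of these genes in further plants can be estimated closely.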
